A study of Homo sapiens with 6 samples.

Results

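Interferon-stimulated genes are the genes that a cell transcribes when it receives an interferon, and 49 of them were followed here in HuCCT1 cells with and without CD90. They were taken by symbol from a fixed list of well-known members, and all 49 were found among the 20811 genes of the expression table. HuCCT1 is a human cell line of intrahepatic cholangiocarcinoma, a cancer of the bile ducts inside the liver. HuCCT1/CD90+ cells were transduced with a THY1-CMV-GFP lentivirus (THY1 encodes CD90). The HuCCT1/CD90- cells received a Lenti-CMV-GFP-2A-Puro-Blank lentivirus at the same multiplicity of infection. Both lines carried a GFP lentivirus, the labels name no interferon or drug, and an untransduced line was not analysed here. RNA of 3 libraries of each line was amplified with a panel that reads each gene from 1 short amplicon. Whether the 3 libraries came from separate cultures, and whether a line is a clone or a pool, is not stated, so p-values measure the spread between these libraries only.

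Interferons of type I and type III bind receptors at the cell surface and activate the kinases JAK1 and TYK2. These phosphorylate transcription factors, among them STAT2, which joins IRF9 at a short DNA element, the interferon-stimulated response element (ISRE), in front of the induced genes. Interferon gamma uses another receptor, and the products of the induced genes sense viral RNA, block translation, restrict entry of viruses or switch the signal off again.

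THY1 was read first as a check of the labels, without telling the transduced copy from the cell's own. Its reads numbered 0, 1 and 0 in HuCCT1/CD90- and 435, 445 and 680 in HuCCT1/CD90+, and THY1 rose by 5.79 on the log2 scale (standard error 0.19, adjusted p = 0.000448 from limma). The 6 libraries held between 8587634 and 10551516 reads on genes, at which 3 reads, used as a floor, are worth 0.284 to 0.349 RPM, reads scaled to a common library size. The floor and the counting intervals below cover counting error only. The sum of 6 cholangiocyte keratin and transcription factor genes ranged over 8181 to 9282 RPM for HuCCT1/CD90- against 10558 to 11365 RPM for HuCCT1/CD90+. Each of these 6 genes was read in every library, and KRT7 overlapped between the lines, at 3150 to 3796 against 3468 to 4027 RPM. Summed markers of 4 other cell types did not overlap between the lines. The 6 leukocyte markers summed to 79.9 to 99.98 RPM for HuCCT1/CD90- against 5.25 to 7.22 RPM for HuCCT1/CD90+, almost all of it CD14 and LYZ, while PTPRC and CD3E had at most 3 reads in every library. ITGAM was at 0.582 RPM in HuCCT1/CD90+ replicate 2 and at most 0.107 RPM in any other library. The 3 endothelial markers summed to 14.5 to 23.2 against 0.643 to 1.51 RPM. For HuCCT1/CD90- this was mostly CDH5, while VWF went the other way, at 0 RPM against 0.107, 0.349 and 0.434 RPM. The 4 fibroblast markers summed to 35.8 to 57.5 against 19.4 to 24.1 RPM, of which COL1A1 overlapped, at 11.2 to 15.5 against 13.97 to 14.3 RPM. The 4 hepatocyte markers summed to 3.59 to 5.89 against 0 to 0.751 RPM. The 3 markers of plasmacytoid dendritic cells, the main interferon producers of blood, summed to 0 and to 0 to 0.109 RPM. The part of these marker genes in the results was not tested.

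Of the 49 interferon-stimulated genes, 17 changed, in both directions. USP18, HERC6, IFIT1, IFIT2, IFIT3, OAS3, ISG20, MX1 and RSAD2 were higher in HuCCT1/CD90+, and IFI16, IFITM1, IFITM2, IFITM3, GBP1, GBP2, IFI44 and SP110 were lower. The test was limma on log2(RPM + 1) over all genes with Benjamini-Hochberg adjustment, and a gene was called at an adjusted p of at most 0.05. This scale understates the change of weakly read genes. The 9 higher genes were 18.4% of the 49, beside 9.41% of all genes tested. The 8 lower genes were 16.3%, beside 9.52% of all genes. The remaining 32 were not called. In bulk RNA, fewer cells expressing a gene and less RNA per cell cannot be told apart. The median log2 fold change was 0.14 over the 49 genes and 0 over all genes tested, and after subtraction of the median of neighbouring genes that of the 49 was -0.017.

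Many genes of the table had few or no reads, whereas 43 of the 49 had a mean of at least 1 RPM. When limma was run over the 12062 genes above that mean, 12 of these 43 were called higher, or 27.9%, beside 20.6% of the genes tested. In the same fit 9 were called lower, or 20.9%, which was close to the 21.1% of the genes tested. At the thresholds of the study's methods, an unadjusted p up to 0.05 with a minimum fold of 1.5, 13 genes were higher (26.5%, beside 10.1% of all genes) and 9 lower (18.4%, beside 9.98%). All 3 libraries of one line lay above all 3 of the other for 27 of the 49 genes. Of these, 17 were higher in HuCCT1/CD90+ (34.7%, beside 17.3% of all genes) and 10 were lower (20.4%, beside 17.7%).

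**Figure D1:**
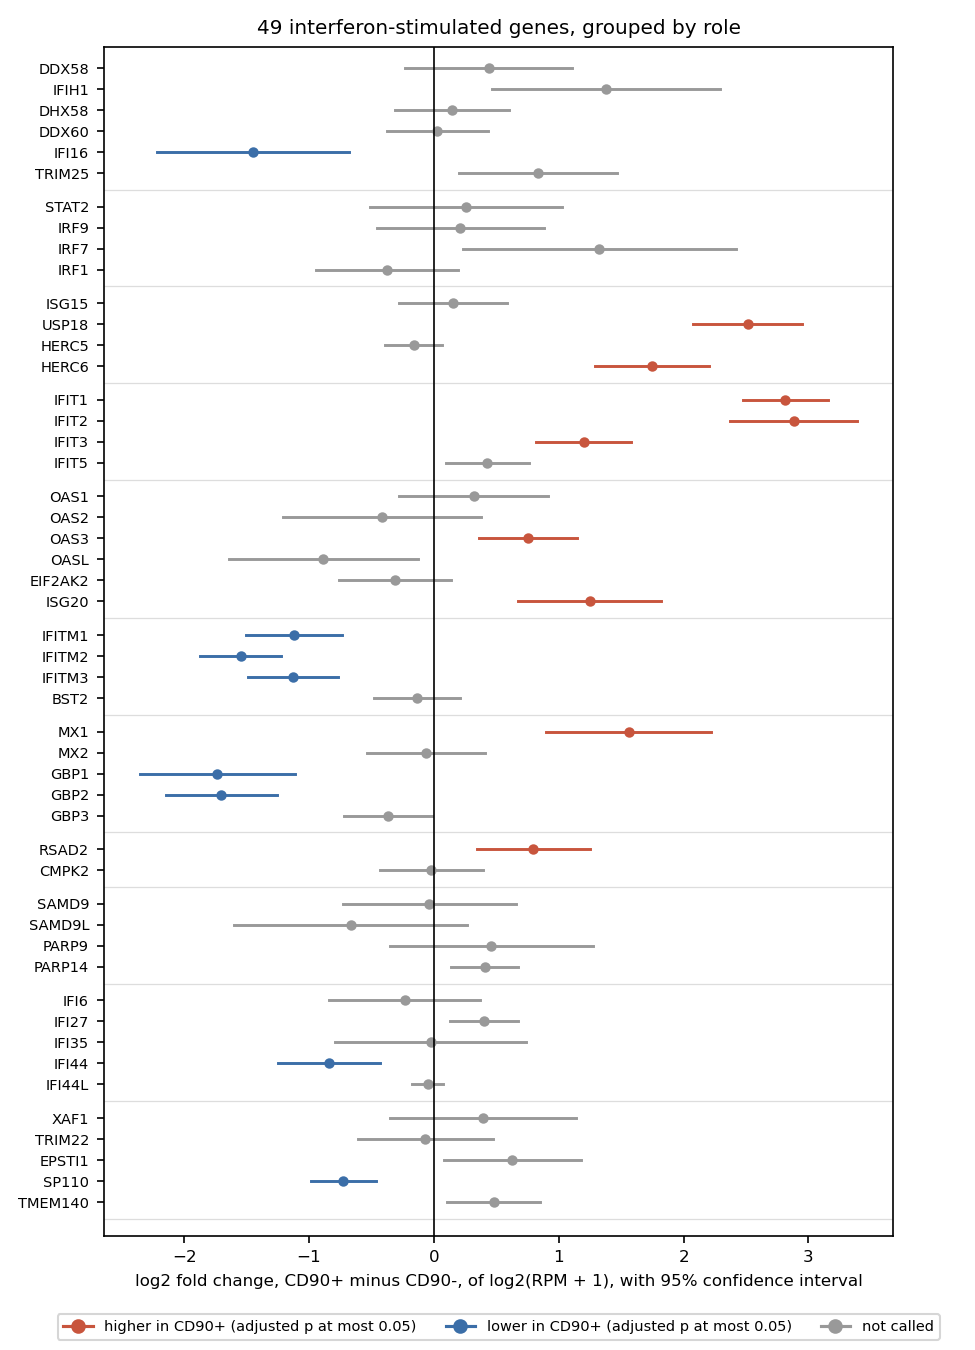
Log2 fold change of each of the 49 genes (x axis, HuCCT1/CD90+ minus HuCCT1/CD90-, on log2(RPM + 1)), grouped by role, with its 95% confidence interval from limma (3 libraries of each line). IFIT1, IFIT2 and USP18 lie farthest to the right and GBP1 and GBP2 farthest to the left, and the 32 genes in grey were not called.

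The DNA around the starts of these genes was examined for the letters of the ISRE. The windows were RefSeq promoters of GRCh38.p14, 250 bases before to 50 after a gene's start, and 39 of the 49 genes had at least one. The genes without a window were DHX58, IRF7, USP18, IFIT2, OAS2, OASL, IFITM2, MX2, GBP2 and TRIM22. The letters searched were GAAANNGAAA and, for the opposite strand, TTTCNNTTTC. They were present somewhere in a window, the 50 bases after the start included, for 26 of the 39 genes, or 66.7%. Counted by window, they were in 30 of the 51 windows of these genes, or 58.8%, and in 3.57% of all 35116 windows of the same length. Genes that rose held them in 6 of 7 cases, genes that fell in 4 of 6, and genes that were not called in 16 of 26. The 16 include EIF2AK2 and GBP3, whose only match reached past the start. Matches of the ISRE letters may overlap each other, and a match is a description of the sequence, not evidence of binding.

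The following stretches are shown so that genes that rose, fell or were not called can be read side by side. Each runs from 5′ to 3′ on the strand of its gene, with the matching letters in capitals. For IFIT3 and IFI44, which have more than 1 window, the first is shown. Matches that reach past the start, or lie far after the first match, are left out. OAS3 and IFITM1, with 2 matches each, are therefore shown with 1. The first 4 belong to genes that rose, the next 4 to genes that fell and the last 2 to genes that were not called.
IFIT1: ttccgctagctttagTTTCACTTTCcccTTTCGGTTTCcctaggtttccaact
IFIT3: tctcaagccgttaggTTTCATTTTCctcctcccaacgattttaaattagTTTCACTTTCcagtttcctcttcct
OAS3: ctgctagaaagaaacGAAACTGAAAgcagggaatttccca
ISG20: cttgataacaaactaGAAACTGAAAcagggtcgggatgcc
IFITM1: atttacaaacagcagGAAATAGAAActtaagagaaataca
IFITM3: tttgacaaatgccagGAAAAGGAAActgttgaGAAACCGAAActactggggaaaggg
GBP1: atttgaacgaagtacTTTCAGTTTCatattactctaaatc
IFI44: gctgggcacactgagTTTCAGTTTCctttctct
ISG15: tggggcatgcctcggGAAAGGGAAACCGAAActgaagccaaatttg
IFI6: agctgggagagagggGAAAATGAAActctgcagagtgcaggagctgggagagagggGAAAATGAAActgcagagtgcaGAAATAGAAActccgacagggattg

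The IFIT1 stretch lies at chr10:89392492-89392544 on the plus strand, with its first match 116 bases before the start, and the IFIT3 stretch at chr10:89327826-89327899, also on the plus strand. OAS3 is shown at chr12:112938316-112938355 and ISG20 at chr15:88638932-88638971, both on the plus strand. Of the genes that fell, IFITM1 is shown at chr11:313985-314024 and IFI44 at chr1:78649756-78649788 on the plus strand, and IFITM3 at chr11:320871-320927 and GBP1 at chr1:89065311-89065350 on the minus strand. ISG15 is shown at chr1:1013369-1013414 on the plus strand and IFI6 at chr1:27672261-27672363 on the minus strand. Genes on both sides of the comparison held the same core letters in front of their starts. The windows of 13 genes, namely HERC6, IFI16, SP110, DDX58, TRIM25, STAT2, IRF9, IRF1, OAS1, CMPK2, SAMD9L, IFI35 and XAF1, held no match, which says only that these letters were not in those windows.

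Of the 6 genes that sense foreign nucleic acid or help to, 1 was called. Values of a line are given in the order of replicates 1, 2 and 3, with HuCCT1/CD90- before HuCCT1/CD90+. IFI16, a sensor of DNA in the nucleus and cytoplasm, was read at 145, 260.2 and 257 RPM in HuCCT1/CD90- and at 84.2, 85.00 and 65.2 RPM in HuCCT1/CD90+. The lines did not overlap, although the first HuCCT1/CD90- library lay well below the other two. IFI16 fell by 1.45 on the log2 scale (standard error 0.29, adjusted p = 0.0350 from limma). With the replicate number as a block the adjusted p was 0.117. The 50 genes nearest to it had a median of -0.34, and after its subtraction IFI16 stood at -1.11 with an adjusted p of 0.0754, so that the call was lost in both fits.

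IFIH1, which encodes MDA5, a sensor of long double-stranded RNA, was at 1.71, 3.42 and 4.75 RPM in HuCCT1/CD90- and 12.4, 8.85 and 8.14 RPM in HuCCT1/CD90+. Its libraries did not overlap, and its log2 fold change was 1.38 (95% confidence interval 0.46 to 2.29, adjusted p = 0.0612). TRIM25, the ubiquitin ligase that activates RIG-I, was at 55.1, 97.5 and 74.4 RPM against 119.96, 146 and 131 RPM, also without overlap, with a difference of 0.83 (95% confidence interval 0.20 to 1.46, adjusted p = 0.0841). Both missed the threshold over all genes and passed it in edgeR and DESeq2 on recovered reads, with adjusted p of 0.000323 and 3.9e-05 for IFIH1 and 0.000917 and 9.7e-05 for TRIM25. DDX58, the gene of RIG-I itself, had overlapping libraries at 57.9, 67.6 and 82.5 RPM against 121, 71.1 and 94.3 RPM and a difference of 0.44 (95% confidence interval -0.23 to 1.10, adjusted p = 0.341). The helicases DHX58 and DDX60 also overlapped between the lines, with log2 fold changes of 0.14 (95% confidence interval -0.31 to 0.60, adjusted p = 0.684) and 0.028 (95% confidence interval -0.37 to 0.43, adjusted p = 1).

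None of the 4 transcription factors of the pathway was called in the test over all genes. IRF7, which amplifies the type I interferon response, was at 11.6, 26.1 and 14.4 RPM in HuCCT1/CD90- and at 31.6, 61.5 and 39.4 RPM in HuCCT1/CD90+. Replicate 2 was the highest library of IRF7 in each line, and the lines did not overlap. The difference in IRF7 was 1.33 (95% confidence interval 0.23 to 2.42, adjusted p = 0.104), and with the replicate number as a block the adjusted p was 0.0191. Among genes averaging 1 RPM or more its adjusted p was 0.00376, and after median centring 0.0468. IRF1, a factor induced by interferon gamma and by type I interferon, was at 51.6, 78.00 and 59.95 RPM against 41.9, 58.5 and 44.6 RPM and overlapped between the lines. IRF1 differed by -0.37 (95% confidence interval -0.94 to 0.19, adjusted p = 0.342), and its adjusted p with the block was 0.0428. STAT2 and IRF9, which act together at the ISRE, overlapped, with differences of 0.26 (95% confidence interval -0.51 to 1.03, adjusted p = 0.656) and 0.21 (95% confidence interval -0.46 to 0.88, adjusted p = 0.689). Of the 50-base stretches of the IRF9 transcripts, 82.7% are shared with another annotated gene, so its reads are uncertain.

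ISG15 is a ubiquitin-like protein, HERC5 and HERC6 belong to the family of ligases that attach it, and USP18 removes it and also switches off signalling at the type I interferon receptor. For USP18, reads numbered 0, 2 and 1 in HuCCT1/CD90- and 59, 48 and 38 in HuCCT1/CD90+. The libraries of HuCCT1/CD90- were all at or under the floor of 3 reads, and those of HuCCT1/CD90+ all far above it. The ratio of pooled reads was 53.8 (95% counting interval 18.1 to 264). USP18 rose by 2.51 on the log2 scale (standard error 0.16, adjusted p = 0.00200 from limma). A share of 23.4% of its 50-base transcript stretches is also found in other genes, mainly in USP41, so part of these reads could belong there.

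HERC6 was at 1.80, 3.21 and 2.81 RPM in HuCCT1/CD90- and at 11.04, 11.3 and 10.4 RPM in HuCCT1/CD90+, and the lines were well apart. It rose by 1.74 on the log2 scale (standard error 0.17, adjusted p = 0.00559 from limma). ISG15 itself was at 205, 149 and 151 RPM in HuCCT1/CD90- and 192, 199.8 and 165 RPM in HuCCT1/CD90+, and the lines overlapped. Its log2 fold change was 0.15 (95% confidence interval -0.28 to 0.58, adjusted p = 0.640). HERC5, the main ligase for ISG15 in human cells, had at most 3 reads in any library, and no fold is given.

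The IFIT genes, which lie together on chromosome 10 and encode proteins that bind foreign RNA and block its translation, gave 3 rises among 4 genes. IFIT1 was at 37.2, 27.1 and 29.2 RPM in HuCCT1/CD90- and at 227, 219 and 224 RPM in HuCCT1/CD90+, or 31.1 ± 5.31 and 223 ± 4.19 RPM as mean ± SD (n = 3). IFIT1 rose by 2.81 on the log2 scale (standard error 0.13, adjusted p = 0.000893 from limma), and its mean was 7.16 times higher. IFIT2 was at 38.8, 27.9 and 33.2 RPM against 202, 276 and 278 RPM. In both genes the lowest HuCCT1/CD90+ library was above 5 times the highest HuCCT1/CD90- library. IFIT2 rose by 2.88 on the log2 scale (standard error 0.19, adjusted p = 0.00205 from limma), with a mean 7.57 times higher. A share of 7.5% of the IFIT2 stretches is found in another annotated gene. IFIT3, whose protein stabilises IFIT1, was at 17.1, 12.3 and 13.8 RPM against 36.5, 30.6 and 35.4 RPM, again without overlap. IFIT3 rose by 1.20 on the log2 scale (standard error 0.14, adjusted p = 0.00911 from limma).

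IFIT5 was read at 9.67, 11.3 and 13.2 RPM in HuCCT1/CD90- and 14.5, 15.7 and 16.6 RPM in HuCCT1/CD90+. All HuCCT1/CD90+ libraries were higher, yet the difference of 0.43 (95% confidence interval 0.098 to 0.76, adjusted p = 0.0892) missed the threshold. The 50 genes nearest to the IFIT cluster had a median log2 fold change of -0.0059, and the 3 rises remained called after it was subtracted, with adjusted p of 0.000915, 0.00220 and 0.00961 for IFIT1, IFIT2 and IFIT3. They also remained called with the replicate number as a block and without any single library.

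**Figure D2:**
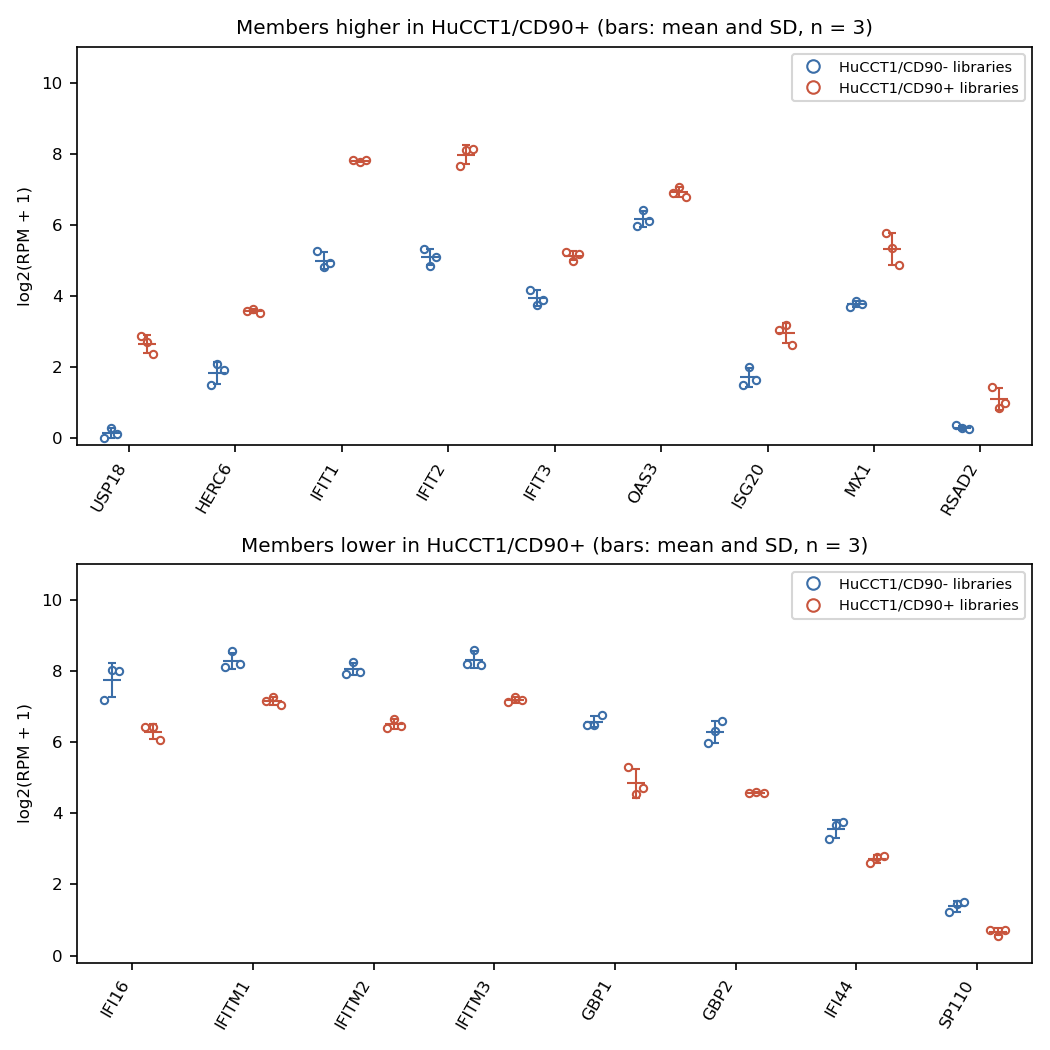
Level of each called gene in every library (y axis, log2(RPM + 1), open circles) with the mean and SD of the 3 libraries of each line. The upper panel shows the 9 genes that rose in HuCCT1/CD90+ and the lower panel the 8 that fell, and in none of the 17 do the circles of the lines overlap.

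Of the 6 enzymes that degrade RNA or stop translation, 2 rose. OAS3, an oligoadenylate synthetase that senses double-stranded RNA and activates RNase L, was at 61.9, 84.7 and 67.7 RPM in HuCCT1/CD90- and 119, 133 and 109.7 RPM in HuCCT1/CD90+, without overlap. OAS3 rose by 0.75 on the log2 scale (standard error 0.15, adjusted p = 0.0334 from limma). ISG20, an exonuclease that degrades viral RNA, was at 1.80, 3.00 and 2.13 RPM against 7.29, 8.15 and 5.21 RPM, also without overlap. ISG20 rose by 1.25 on the log2 scale (standard error 0.21, adjusted p = 0.0240 from limma), and under the block its adjusted p was 0.0544.

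The other oligoadenylate synthetase genes were not called. OASL, which has no synthetase activity and helps RIG-I, had 29, 9 and 14 reads in HuCCT1/CD90- and 2, 5 and 4 in HuCCT1/CD90+. Its lines did not overlap, and its difference pointed down at -0.89 (95% confidence interval -1.64 to -0.13, adjusted p = 0.113). OAS1 differed by 0.32 (95% confidence interval -0.28 to 0.92, adjusted p = 0.461) and OAS2 by -0.42 (95% confidence interval -1.21 to 0.38, adjusted p = 0.469), with overlapping libraries in both. OAS2 was called lower only when the first HuCCT1/CD90- library was left out (-0.72 on the log2 scale, adjusted p = 0.0259). EIF2AK2, the gene of the kinase PKR that stops translation, overlapped at -0.31 (95% confidence interval -0.76 to 0.14, adjusted p = 0.317).

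Of the 4 membrane proteins that restrict viruses, the 3 IFITM genes fell together. Their proteins sit in the plasma membrane and in endosomes and hinder the fusion of viruses with the cell. IFITM1 was at 275, 374 and 291 RPM in HuCCT1/CD90- and 141, 154 and 132 RPM in HuCCT1/CD90+. IFITM2 was at 242, 303 and 251 RPM against 83.5, 100.3 and 85.9 RPM, and IFITM3 at 291, 385 and 289 RPM against 138, 154 and 143 RPM. Replicate 2 was the highest library in each line for all 3 genes, and the lines were far apart. IFITM1 fell by 1.12 on the log2 scale (standard error 0.14, adjusted p = 0.0112 from limma), IFITM2 by 1.55 on the log2 scale (standard error 0.12, adjusted p = 0.00317 from limma) and IFITM3 by 1.13 on the log2 scale (standard error 0.14, adjusted p = 0.00949 from limma).

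The 3 IFITM genes stayed called with the block, with adjusted p of 0.0320, 0.0110 and 0.0321. Without HuCCT1/CD90+ replicate 3 the adjusted p of IFITM1 was 0.0508. The median over their neighbours on chromosome 11 was 0.40, opposite in sign, and after its subtraction the values were -1.52, -1.94 and -1.53. The family is similar in sequence, and 32.9% of the 50-base stretches of IFITM1, 35.3% of IFITM2 and 16% of IFITM3 are found in other genes as well. As the position of the amplicons is not known, the reads could have been shared between them. BST2, the gene of tetherin, which holds budding viruses at the cell surface, was at 173, 228 and 196 RPM against 192, 163 and 187 RPM. The lines overlapped for BST2, and the difference was -0.14 (95% confidence interval -0.48 to 0.21, adjusted p = 0.572).

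Of the 5 large GTPases, 1 rose and 2 fell. MX1, a dynamin-like protein that traps viral nucleoproteins, was at 11.8, 13.4 and 12.7 RPM in HuCCT1/CD90- and 53.3, 39.7 and 28.3 RPM in HuCCT1/CD90+. The HuCCT1/CD90- libraries lay close to each other, and those of HuCCT1/CD90+ were spread widely but all higher. MX1 rose by 1.56 on the log2 scale (standard error 0.25, adjusted p = 0.0197 from limma), and its adjusted p with the block was 0.0800. MX2 had at most 4 reads in any library and a difference of -0.064 (95% confidence interval -0.53 to 0.41, adjusted p = 0.998).

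The guanylate-binding proteins coat vacuoles and membranes of invading microbes and are typical of the response to interferon gamma, and GBP1 and GBP2 fell. GBP1 was at 88.3, 88.7 and 107 RPM in HuCCT1/CD90- and 38.1, 22.1 and 24.96 RPM in HuCCT1/CD90+. GBP2 was at 61.7, 77.9 and 94.8 RPM against 22.9, 23.3 and 22.7 RPM, with the 3 HuCCT1/CD90+ libraries almost equal. Neither gene overlapped between the lines. GBP1 fell by 1.73 on the log2 scale (standard error 0.23, adjusted p = 0.0128 from limma), with an adjusted p of 0.0653 under the block. GBP2 fell by 1.70 on the log2 scale (standard error 0.17, adjusted p = 0.00574 from limma), with 0.0414 under the block. A share of 13.3% of the GBP1 stretches is found in other genes, mainly the pseudogene GBP1P1. GBP3 was lower in every HuCCT1/CD90+ library, at 37.2, 44.3 and 39.00 RPM against 35.9, 30.5 and 26.7 RPM, but the difference of -0.37 (95% confidence interval -0.72 to -0.013, adjusted p = 0.148) was not called.

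RSAD2 encodes viperin, which makes a chain-terminating nucleotide, and CMPK2 is the neighbouring kinase that supplies its substrate. RSAD2 had 3, 2 and 2 reads in HuCCT1/CD90- and 16, 7 and 9 in HuCCT1/CD90+. The lines did not overlap, but the counts were small, and the ratio of pooled reads was 5.09 (95% counting interval 2.21 to 13.7). RSAD2 rose by 0.80 on the log2 scale (standard error 0.17, adjusted p = 0.0419 from limma), and its adjusted p with the block was 0.0818. CMPK2 had 2, 2 and 3 reads against 0, 4 and 2 reads, and no fold is given.

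No member of the SAMD9 and PARP group was called. SAMD9 and SAMD9L, which restrict poxviruses, overlapped between the lines, with differences of -0.036 (95% confidence interval -0.73 to 0.66, adjusted p = 1) and -0.67 (95% confidence interval -1.60 to 0.27, adjusted p = 0.301). PARP9 and PARP14, ADP-ribosyltransferases of the interferon response, differed by 0.46 (95% confidence interval -0.35 to 1.27, adjusted p = 0.426) and 0.41 (95% confidence interval 0.14 to 0.67, adjusted p = 0.0598). PARP14 was higher in every HuCCT1/CD90+ library, at 15.6, 19.05 and 17.6 RPM against 24.9, 21.1 and 24.2 RPM. Genes around PARP9 and PARP14 had a median log2 fold change of 0.60, and those around SAMD9 and SAMD9L 0.64.

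Of the 5 genes IFI6, IFI27, IFI35, IFI44 and IFI44L, IFI44 alone was called. It was at 8.62, 11.8 and 12.4 RPM in HuCCT1/CD90- and 5.04, 5.82 and 5.97 RPM in HuCCT1/CD90+, without overlap. IFI44 fell by 0.84 on the log2 scale (standard error 0.15, adjusted p = 0.0286 from limma), and after the median of its neighbours, -0.37, was subtracted it stood at -0.52 with an adjusted p of 0.105. IFI44L, the paralogue beside it, had 1 read in all 6 libraries together. IFI27, a mitochondrial protein that rises strongly in many interferon signatures, was at 104, 103 and 101 RPM against 155, 137 and 119 RPM. IFI27 did not overlap between the lines, and its difference was 0.40 (95% confidence interval 0.12 to 0.68, adjusted p = 0.0670). Without HuCCT1/CD90+ replicate 3 IFI27 was called, with an adjusted p of 0.0350. IFI6 and IFI35 overlapped, at -0.23 (95% confidence interval -0.84 to 0.37, adjusted p = 0.583) and -0.026 (95% confidence interval -0.79 to 0.74, adjusted p = 1).

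Among the remaining 5 induced genes SP110, a nuclear body protein, had 14, 16 and 19 reads in HuCCT1/CD90- and 6, 4 and 6 in HuCCT1/CD90+. The lines did not overlap, at low counts. SP110 fell by 0.72 on the log2 scale (standard error 0.098, adjusted p = 0.0131 from limma), with an adjusted p of 0.0663 under the block. EPSTI1 was at 1.99, 1.93 and 2.04 RPM against 5.04, 3.49 and 2.60 RPM and differed by 0.63 (95% confidence interval 0.079 to 1.17, adjusted p = 0.119). TMEM140 had 1, 4 and 5 reads against 7, 7 and 9 reads and differed by 0.48 (95% confidence interval 0.10 to 0.85, adjusted p = 0.0913). Both were higher in every HuCCT1/CD90+ library without being called. XAF1, which promotes apoptosis, and TRIM22, which restricts viruses, overlapped at 0.39 (95% confidence interval -0.35 to 1.14, adjusted p = 0.468) and -0.069 (95% confidence interval -0.61 to 0.47, adjusted p = 1). A share of 15.5% of the TRIM22 stretches is found in other genes.

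How firmly the 17 calls stood varied among the genes. Under the replicate block 11 of the 17 were called, 6 higher and 5 lower. The 6 that were not were ISG20, MX1, RSAD2, IFI16, GBP1 and SP110. The block also called IRF7 and IRF1, giving 7 higher (14.3%, beside 6.72% of all genes) and 6 lower (12.2%, beside 6.4%). USP18, HERC6, IFIT1, IFIT2, IFIT3, IFITM2, IFITM3 and GBP2 were called whichever library was left out. The adjusted p of IFI16 was 0.0937 to 0.113 without any library except HuCCT1/CD90- replicate 1, and that of IFI44 0.0823 to 0.0927. OAS3 had 0.0810 to 0.110 without any library except HuCCT1/CD90- replicate 2, and RSAD2 0.0580 to 0.129 without any except HuCCT1/CD90+ replicate 1.

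ISG20 missed the threshold without HuCCT1/CD90- replicate 1 or 3 or HuCCT1/CD90+ replicate 1 or 2, with adjusted p of 0.0697 to 0.0860. MX1 missed it without any HuCCT1/CD90- library or HuCCT1/CD90+ replicate 2, at 0.0656 to 0.0723. GBP1 had 0.0524 without HuCCT1/CD90- replicate 3 and 0.0570 without HuCCT1/CD90+ replicate 3, and SP110 had 0.0531 without HuCCT1/CD90- replicate 2 and 0.0502 without HuCCT1/CD90+ replicate 3. Of the higher genes, 5 (10.2% of the 49) were called without HuCCT1/CD90- replicate 1 or 3 or HuCCT1/CD90+ replicate 2, beside 6.04% to 6.69% of all genes. Of the lower genes, 3 (6.12% of the 49) were called without HuCCT1/CD90+ replicate 3, close to the 5.02% of all genes. Without HuCCT1/CD90- replicate 2 or 3, 5 of them (10.2%) were called, beside 6.43% and 5.81% of all genes. All 17 kept their direction whichever library was left out. On recovered reads edgeR tested 42 of the 49 genes and called 14 higher (33.3%, beside 22.2% of all genes tested) and 9 lower (21.4%, beside 22.2%). DESeq2 gave an adjusted p for 47 and called 14 higher (29.8%, beside 19%) and 9 lower (19.1%, beside 18%), so that the shares of lower genes were close to those of all genes in both tools. Of the 17 calls, RSAD2 was not tested by edgeR because of its low counts, and SP110 was not called by DESeq2 (adjusted p = 0.0735). RSAD2 also lost its call with a pseudocount of 5 RPM, at a log2 fold change of 0.24, and after quantile normalization, at 0.81. Beyond IFIH1, TRIM25 and IRF7, both tools added DDX58 and IFI27 among the higher and SAMD9L among the lower genes, edgeR added EPSTI1 among the higher, and DESeq2 added OASL among the lower. Limma over genes averaging 1 RPM or more added IFIH1, TRIM25, IRF7 and EPSTI1 among the higher and OASL among the lower, and after median centring it added IFIH1, TRIM25, IRF7, IFIT5, PARP14 and TMEM140 among the higher. Quantile normalization added IFIH1, IFIT5, PARP14 and TMEM140 among the higher, and a pseudocount of 5 RPM added IFIH1.

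**Figure D3:**
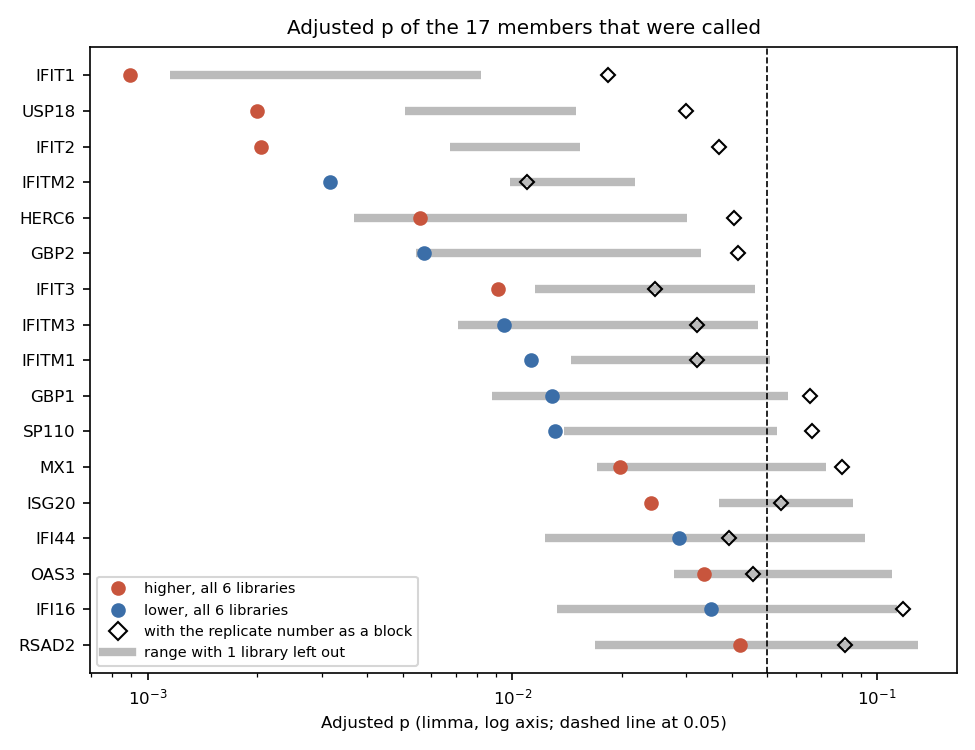
Adjusted p of the 17 called genes (x axis, log scale, limma) with all 6 libraries (filled circles), with the replicate number as a block (diamonds) and over the 6 fits that leave out 1 library (grey bars). Diamonds of 6 genes lie to the right of the dashed line at 0.05, and the bars of USP18, HERC6, IFIT1, IFIT2, IFIT3, IFITM2, IFITM3 and GBP2 end to its left.

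Genes that act before the interferon-stimulated genes were taken from a list of 40, of which 38 were found in the table. Limma called 6 of the 38 higher, or 15.8%, beside 9.41% of all genes, and 2 lower, or 5.26%, beside 9.52%. Among genes averaging 1 RPM or more, 8 of 30 were called higher, or 26.7%, beside 20.6%, and 3 lower, or 10%, beside 21.1%. Of the 10 interferons looked up, 8 had at most 3 reads in every library, among them IFNB1, IFNG and the 3 type III interferons IL29, IL28A and IL28B. IFNE, an epithelial type I interferon, was at 8.81, 5.24 and 9.41 RPM against 8.04, 6.87 and 13.9 RPM and differed by 0.24 (95% confidence interval -0.68 to 1.16, adjusted p = 0.774). IFNA1 was at 1.90, 1.28 and 2.33 RPM against 1.18, 1.28 and 1.95 RPM and differed by -0.19 (95% confidence interval -0.72 to 0.33, adjusted p = 0.609). Libraries of the lines overlapped for both.

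Of the 6 receptor chains, 1 rose and 1 fell, each 16.7%, beside 9.41% and 9.52% of all genes. IFNGR1, the ligand-binding chain for interferon gamma, was at 52.7, 54.9 and 47.5 RPM in HuCCT1/CD90- and 20.8, 17.4 and 18.3 RPM in HuCCT1/CD90+, far apart. IFNGR1 fell by 1.41 on the log2 scale (standard error 0.090, adjusted p = 0.00191 from limma). IL28RA, the chain specific for type III interferons, was at 3.03, 3.10 and 2.81 RPM against 6.86, 11.4 and 6.95 RPM, without overlap. IL28RA rose by 1.21 on the log2 scale (standard error 0.21, adjusted p = 0.0244 from limma), with an adjusted p of 0.0688 under the block and 0.0537 to 0.0869 without any library except HuCCT1/CD90+ replicate 2. The type I receptor chains IFNAR1 and IFNAR2 differed by -0.17 (95% confidence interval -0.61 to 0.26, adjusted p = 0.572) and -0.51 (95% confidence interval -0.92 to -0.094, adjusted p = 0.101), IFNGR2 by 0.18 (95% confidence interval 0.018 to 0.34, adjusted p = 0.126) and IL10RB by -0.13 (95% confidence interval -0.64 to 0.38, adjusted p = 0.801). Libraries of the lines did not overlap for IFNAR2 and IFNGR2, and edgeR and DESeq2 called IFNAR2 lower, with adjusted p of 0.0253 and 0.0302.

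TYK2, the kinase of the type I receptor, was at 82.5, 122 and 106 RPM in HuCCT1/CD90- and 62.5, 54.7 and 62.9 RPM in HuCCT1/CD90+. TYK2 fell by 0.76 on the log2 scale (standard error 0.17, adjusted p = 0.0449 from limma), with an adjusted p of 0.145 under the block and of 0.0656 after its neighbours were subtracted, at a log2 fold change of -0.68. The call was also lost with the trend and robust settings of eBayes. It missed the threshold without 5 of the 6 libraries in turn, all but HuCCT1/CD90- replicate 1.

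Sensors and adaptors of the pathway gave 3 rises among 11 genes, or 27.3%, beside 9.41% of all genes, and no fall. All 11 averaged at least 1 RPM, and of all such genes 20.6% were called higher in their own fit. MYD88, the adaptor of most toll-like receptors, was at 49.1, 46.2 and 46.9 RPM against 61.9, 63.1 and 59.4 RPM. MYD88 rose by 0.37 on the log2 scale (standard error 0.035, adjusted p = 0.00512 from limma). It was not called among genes averaging 1 RPM or more, with an adjusted p of 0.0571, and edgeR gave 0.0485. ZBP1, a sensor of Z-form nucleic acid that can trigger cell death, had 0, 0 and 1 reads in HuCCT1/CD90- and 22, 23 and 18 in HuCCT1/CD90+. Its ratio of pooled reads was 70.1 (95% counting interval 12.1 to 2814), and ZBP1 rose by 1.69 on the log2 scale (standard error 0.097, adjusted p = 0.00153 from limma). IRF5, a transcription factor that acts after toll-like receptors, had 1, 1 and 2 reads against 55, 72 and 91 reads, with a ratio of 60.7 (95% counting interval 23.4 to 225). IRF5 rose by 2.98 on the log2 scale (standard error 0.19, adjusted p = 0.00187 from limma). The libraries of HuCCT1/CD90- were at or under the floor for ZBP1 and IRF5. TLR3, a sensor of double-stranded RNA in endosomes, was higher in every HuCCT1/CD90+ library at 0.98 (95% confidence interval 0.12 to 1.84, adjusted p = 0.119), and edgeR and DESeq2 gave an adjusted p of 0.00568 and 0.0165. MAVS, TBK1, IKBKE and IRF3, which carry the signal from RIG-I and MDA5, were not called, with log2 fold changes of 0.19, 0.14, 0.21 and 0.41.

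Of the 6 genes that brake the response, 2 rose, or 33.3%, beside 9.41% of all genes. All 6 averaged at least 1 RPM, and of all such genes 20.6% were called higher in their own fit. PTPN6, a phosphatase that removes phosphate from JAK kinases, was at 21.1, 32.2 and 29.1 RPM against 55.4, 68.1 and 72.8 RPM without overlap. PTPN6 rose by 1.23 on the log2 scale (standard error 0.20, adjusted p = 0.0210 from limma), with an adjusted p of 0.0665 to 0.0792 without HuCCT1/CD90- replicate 3 or HuCCT1/CD90+ replicate 2 or 3. SOCS3, a feedback inhibitor of JAK signalling, was at 20.8, 20.8 and 17.9 RPM against 26.5, 34.7 and 27.9 RPM, also without overlap. SOCS3 rose by 0.55 on the log2 scale (standard error 0.13, adjusted p = 0.0499 from limma), at the edge of the threshold, with 0.0913 under the block and 0.0651 to 0.137 with any library left out. Its call was also lost with a pseudocount of 5 RPM, after quantile normalization and with the trend and robust settings of eBayes. IRF2, a repressor of interferon-stimulated promoters, and TRIM21, a ubiquitin ligase, were higher in every HuCCT1/CD90+ library without being called, at 0.77 (95% confidence interval 0.14 to 1.39, adjusted p = 0.1004) and 0.69 (95% confidence interval 0.18 to 1.20, adjusted p = 0.0807). The adjusted p of IRF2 was 0.00389 in edgeR and 0.00150 in DESeq2, and that of TRIM21 0.00945 and 0.00993.

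**Figure D4:**
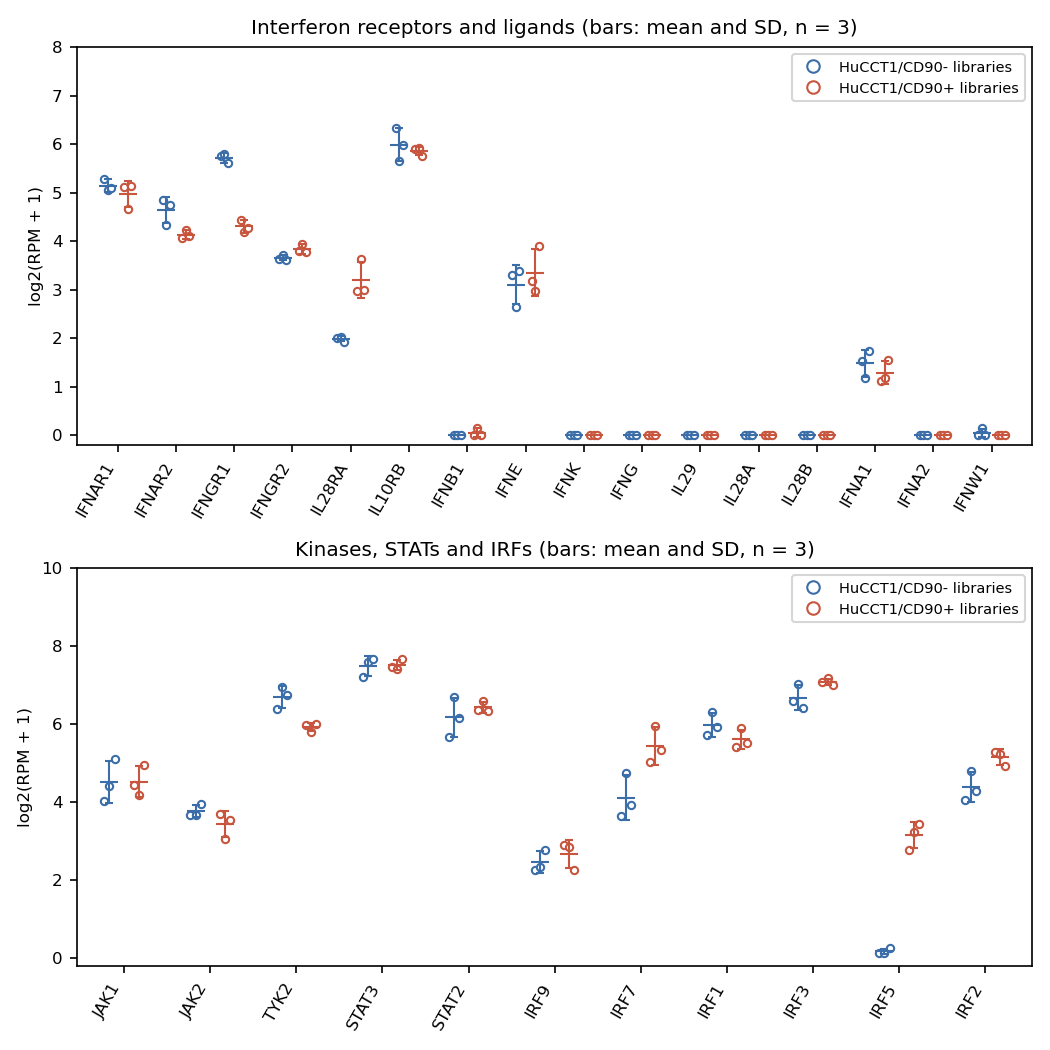
Level in every library (y axis, log2(RPM + 1), open circles) of receptors and ligands (upper panel) and of kinases, STAT genes and interferon regulatory factors (lower panel), with the mean and SD of the 3 libraries of each line. The lines are apart for IFNAR2, IFNGR1, IFNGR2, IL28RA, TYK2, IRF7, IRF5 and IRF2, overlap for STAT2 and IRF9, and 8 of the 10 ligands lie at or near 0.

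A list of 55 further genes that interferons induce, none of them among the 49, was read for comparison, and all 55 were in the table. Limma called 12 higher, or 21.8%, beside 9.41% of all genes, and 10 lower, or 18.2%, beside 9.52%. Among genes averaging 1 RPM or more, 18 of 51 were called higher, or 35.3%, beside 20.6%, and 11 lower, or 21.6%, close to the 21.1% of the genes tested. Their median log2 fold change was 0.10. The guanylate-binding genes GBP4 and GBP5 fell as GBP1 and GBP2 did. GBP4 was at 11.1, 12.6 and 10.9 RPM in HuCCT1/CD90- and 1.61, 0.233 and 0.760 RPM in HuCCT1/CD90+, and fell by 2.81 on the log2 scale (standard error 0.30, adjusted p = 0.00720 from limma). GBP5 had 13, 31 and 24 reads in HuCCT1/CD90- and none in HuCCT1/CD90+, at least 6.56-fold lower against the floor of 3 reads per library (adjusted p = 0.0193 from limma). With the block the adjusted p was 0.0510 for GBP4 and 0.0698 for GBP5.

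IDO1, the enzyme that degrades tryptophan and a classical target of interferon gamma, had 126, 171 and 175 reads in HuCCT1/CD90- and 2, 3 and 0 in HuCCT1/CD90+. Its ratio of pooled reads, HuCCT1/CD90- over HuCCT1/CD90+, was 84.8 (95% counting interval 36.1 to 262), and IDO1 fell by 3.81 on the log2 scale (standard error 0.21, adjusted p = 0.00136 from limma). TAP1, a peptide transporter chain, was at 126, 124 and 131 RPM against 77.5, 69.9 and 71.8 RPM and fell by 0.79 on the log2 scale (standard error 0.048, adjusted p = 0.00177 from limma), whereas TAP2, its partner, was at 101, 119.7 and 100.4 RPM against 157, 157 and 150.1 RPM and rose by 0.53 on the log2 scale (standard error 0.080, adjusted p = 0.0172 from limma). PSMB9, a subunit of the immunoproteasome, fell by 0.84 on the log2 scale (standard error 0.12, adjusted p = 0.0136 from limma), and B2M, the light chain of class I molecules, differed by -0.11 (95% confidence interval -0.25 to 0.039, adjusted p = 0.287). With the block the adjusted p was 0.0534 for TAP2 and 0.0583 for PSMB9.

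The list also held genes of cell death, metabolism and lysosomes. TNFSF10, the death ligand TRAIL, was at 21.1, 28.9 and 21.3 RPM against 6.54, 4.77 and 3.58 RPM and fell by 2.07 on the log2 scale (standard error 0.24, adjusted p = 0.00854 from limma). GCH1, the first enzyme of tetrahydrobiopterin synthesis, was at 5.69, 6.74 and 4.66 RPM against 34.2, 32.95 and 34.5 RPM and rose by 2.39 on the log2 scale (standard error 0.13, adjusted p = 0.00124 from limma). CTSS, a lysosomal protease, was at 3.32, 4.60 and 5.72 RPM against 26.9, 20.5 and 19.7 RPM and rose by 2.09 on the log2 scale (standard error 0.22, adjusted p = 0.00665 from limma), although the block gave 0.0630. IFI30, a lysosomal thiol reductase, rose by 1.77 on the log2 scale (standard error 0.15, adjusted p = 0.00404 from limma), and LGALS9, the gene of galectin-9, by 1.92 on the log2 scale (standard error 0.20, adjusted p = 0.00703 from limma). The remaining rises, those of DTX3L, PARP12, TDRD7, TRIM5, APOL1, APOL6 and WARS, lay between 0.28 and 1.42 on the log2 scale. The remaining falls, those of PML, ADAR, LAP3 and C19orf66, lay between -0.84 and -0.41. The chemokines CXCL9, CXCL10 and CXCL11, often the strongest genes of an interferon response, had at most 4 reads in any library.

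GBP5 missed the threshold without HuCCT1/CD90- replicate 3 or any HuCCT1/CD90+ library (adjusted p = 0.0698 to 0.0758 from limma). PSMB9 missed it without HuCCT1/CD90- replicate 2 or any HuCCT1/CD90+ library (0.0534 to 0.0604), and TAP2 without any library except HuCCT1/CD90- replicate 2 (0.0565 to 0.0672). APOL1, APOL6, C19orf66, LAP3, PARP12, PML and WARS each missed it without at least 3 of the libraries in turn, with adjusted p between 0.0508 for PARP12 and 0.104 for LAP3. After subtraction of the neighbouring genes, ADAR, LAP3, PSMB9, DTX3L and PARP12 were no longer called, with adjusted p from 0.0529 for PARP12 to 0.208 for ADAR. Their log2 fold changes moved from -0.41 to -0.073 for ADAR, from -0.45 to -0.21 for LAP3, from -0.84 to -0.49 for PSMB9, from 1.02 to 0.43 for DTX3L and from 1.15 to 0.68 for PARP12. The same subtraction added IFNGR2 and B2M, at 0.0485 and 0.0460. The replicate block ended the calls of APOL1, C19orf66 and LAP3 as well and added NLRC5 and TRIM26, at 0.0155 and 0.0433. WARS was not called by edgeR or DESeq2, with adjusted p of 0.0929 and 0.0686, nor among genes averaging 1 RPM or more (0.142) or after median centring.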

How the data were processed

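Total RNA of HuCCT1/CD90+ and HuCCT1/CD90- cells (3 libraries each) served for amplicon libraries (Ion AmpliSeq Transcriptome panel) read with the Ion GeneStudio S5 Prime. The authors obtained read counts from the ampliSeqRNA plugin of the Torrent Suite, and their deposited table gives RPM, which put every library on an equal total, for 20811 genes without a filter. The submitters' processing notes name the genome build hg19 and the Transcriptome Analysis Console, and amplicon positions are not given in the sources used here. A gene read over 1 amplicon can depend on the isoform that holds it.

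Deposited RPM were taken to log2(RPM + 1) and tested with limma 3.58.1 in R 4.3.3 (lmFit, eBayes, two-sided, no block, Benjamini-Hochberg over all genes). Dividing the RPM by the worth of 1 read gave whole reads (within 0.05 reads) for 100% of values, 8587634 to 10551516 per library. The count tests on these reads were edgeR 4.0.16 (quasi-likelihood, TMM, filterByExpr), which called 5357 of 12070 genes, and DESeq2 1.42.0, which called 5326 of 14399 genes with an adjusted p, at an adjusted p of at most 0.05. Scripts were tested on simulated data. Deviations from the mean of each line correlated with r = 0.21, 0.32 and 0.18 for same-numbered libraries and with r of -0.29 to 0.07 for differently numbered ones. As deviations cancel out within a line, these ranges depend on each other, and with 3 libraries of each line they cannot settle the pairing. The replicate block, an alternative to the main test, treated equal numbers as pairs on this correlation alone. The other alternatives were pseudocounts of 0.1 and 5 RPM, a minimum mean of 1 RPM, quantile normalization, median centring, eBayes with trend and robust settings, each library left out, and subtraction of the neighbourhood median (50 nearest genes, RefSeq GRCh38.p14 order, mean of at least 10 RPM). The genes named are all 49, the called genes of the other lists, the receptors and the ligands, apart from items that are not reported here. Other genes named from those lists were chosen after their values were seen. The members, lists and tests were chosen with earlier results of these data known. Promoter sequences are from RefSeq GRCh38.p14, and shared transcript stretches of 50 bases were counted in GENCODE 29.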

Additional observations from a re-analysis of the deposited data

How the results depend on the processing

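The 17 called genes kept their direction in every alternative run on them. Of the interferon-stimulated genes, 9 were higher and 8 lower. Median centring called 15 higher (30.6%, beside 11.5% of all genes), edgeR 14 (33.3%, beside 22.2%) and DESeq2 14 (29.8%, beside 19%). With 1 library left out, and so fewer libraries in each fit, 5 to 8 were higher (10.2% to 16.3%, beside 5.54% to 6.69% of all genes). In these fits 3 to 9 were lower (6.12% to 18.4%, beside 5.02% to 7.4%). The 3 lower without HuCCT1/CD90+ replicate 3 were 6.12%, close to the 5.02% of all genes in that fit. With the replicate block (paired numbers) 7 were higher (14.3%, beside 6.72% of all genes) and 6 lower (12.2%, beside 6.4%). Their median log2 fold change moved from 0.14 to -0.017 when the neighbouring genes were subtracted, and the cause was not tested. Of the upstream genes (6 higher, 2 lower), 1 was lower with the block, beside 6.4% of all genes. Likewise 1 was lower with eBayes trend and robust settings and with neighbouring genes subtracted, for which no share of all genes is given here. With edgeR 4 were lower, beside 22.2% of all genes tested. Leaving out 1 library gave 3 to 6 higher and 1 to 2 lower, beside 5.54% to 6.69% and 5.02% to 7.4% of all genes. Of the other induced genes (12 higher, 10 lower), DESeq2 called 19 higher, beside 19% of all genes with an adjusted p, and the block 6 lower, beside 6.4%. Leaving out 1 library gave 8 to 11 higher and 5 to 8 lower, beside the same shares of all genes as for the upstream genes. The share of all genes called moved with the setting too, so these counts alone are no result about either list. Genes that were not called changed sign: subtracting the neighbouring genes gave -0.27 for DDX60, -0.024 for PARP9, -0.17 for PARP14 and 0.035 for IFI35, and leaving out 1 library gave -0.13 to 0.13 for DDX60, -0.18 to 0.073 for MX2, -0.16 to 0.12 for CMPK2, -0.24 to 0.18 for SAMD9, -0.28 to 0.17 for IFI35, -0.23 to 0.016 for TRIM22, -0.29 to 0.045 for IL10RB, -0.029 to 0.43 for IFNE and -0.0030 to 0.44 for IKBKE. The block changed no call of a listed gene beside those named above. HERC5, IFI44L, CMPK2 and MX2 had at most 4 reads in any library, which limits what their comparison can show.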
